A study of Equus caballus with 6 samples.

Results

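The genes described here make, take up, store and move cholesterol, the molecule from which the testis builds its androgens and oestrogens. They were 37 named genes, chosen as 5 steps of the pathway: mevalonate synthesis (8 genes), squalene to lanosterol (3), lanosterol to cholesterol (8), control by the sterol-sensing transcription factors (5), and uptake, storage and transport (13). On the arrays a member was read by every spot whose platform annotation gave its symbol and no other, which held for 51 probes of 34 members, out of 18278 symbols read in this way. Of the other 3 members, ACAT2 and APOE were named only on probes shared with other symbols and FDFT1 was not read by a probe of its own, so these are not analysed here. The symbols of 36 of the 37 members, all but IDI1, were found in RefSeq's gene list for horse (assembly TB-T2T).

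The tissue was testicular parenchyma, minced and extracted whole, from 6 adult stallions kept in the clinic for 10 days beforehand. In 3 stallions 0.1 mg/kg dexamethasone, a synthetic glucocorticoid, had been injected into a vein, and in the 3 control stallions the same volume of saline, in each case 12 h before the testes were taken. The RNA of each stallion was read on 1 human CodeLink array in a single colour, so that human probes measured horse transcripts, and a dim probe can mean a poor match as well as a scarce transcript. Values are log2 of the background-corrected intensity after quantile normalisation, differences are dexamethasone minus control, and SD is over the stallions of a group unless SE is given.

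Cells make cholesterol from acetyl-CoA: the mevalonate steps build an isoprenoid unit, squalene synthesis and cyclisation give lanosterol, and a further series of enzymes trims lanosterol to cholesterol. When membranes run short of sterol, SCAP carries the SREBP proteins from the endoplasmic reticulum to the Golgi, where they are cut and freed to switch on the enzymes of synthesis, while the INSIG proteins hold SCAP back when sterol is plentiful. In the testis, Leydig cells draw cholesterol for testosterone from their own synthesis, from lipoproteins taken up through SCARB1, and from stored esters released by LIPE. No sequences of the probes or of the horse genes were used here.

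Of the 54990 spots on an array, 53423 were single-copy gene probes, and 42.5% to 47.8% of them were above background in a given stallion. The labelled tissue was checked against marker genes. INSL3 and LHCGR of Leydig cells, AMH and FSHR of Sertoli cells, and ACR, TNP2, LDHC and ODF1 of germ cells were above background on all 6 arrays, whereas the probes of SOX9, DDX4, PRM2, TNP1 and PGK2, also testicular genes, were above background on 0 arrays. CRISP1, a gene of the epididymal duct, was above background on 0 arrays. Whether low levels of a transcript reflect fewer cells of a type or less RNA per cell cannot be told apart in whole tissue.

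Testing required signal above background in 3 or more stallions and 2 or more usable values per group, which 28 of the 51 probes and 21 of the 37 members met. Over all 53423 probes 46.0% were tested, against 54.9% of the members' probes. Of the members' probes, 19 were above background on all 6 arrays (37.3%, against 35.1% of all probes), 19 on 0 arrays (37.3%, against 44.5%), and the other 13 on 1 to 5 arrays. In 18 of the 21 tested members the probe was above background in 2 or more stallions of each group. A further 8 probes, of 7 tested members, did not meet the filter.

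**Figure D1:**
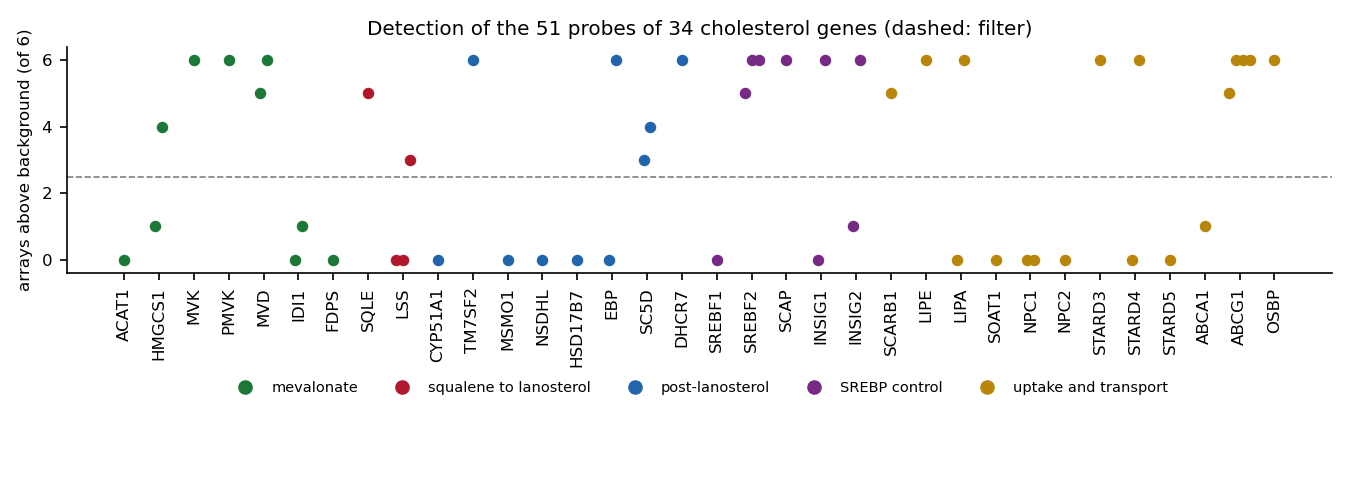
The number of arrays, out of 6, on which each of the 51 probes was above background (vertical axis) is plotted for the 34 members with a probe of their own (horizontal axis), coloured by pathway step; each point is 1 probe and the dashed line is the filter. Of the 51 probes 19 sit at 6 arrays and 19 at 0, and the probes of 13 members lie wholly below the line.

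The 13 members with a probe but no test lay in every step except squalene to lanosterol. They were ACAT1, IDI1 and FDPS in mevalonate synthesis, CYP51A1, MSMO1, NSDHL and HSD17B7 after lanosterol, SREBF1 in the control of synthesis, and SOAT1, NPC1, NPC2, STARD5 and ABCA1 in storage and transport. Of their 15 probes, 13 were above background on 0 arrays and 2 on 1 array, and the values lay between 5.75 and 6.47 on the log2 scale. The probe of HSD17B7, a 3-ketosteroid reductase of the late pathway, had no value on any array. FDPS, CYP51A1 and MSMO1, central enzymes of the pathway, were among these. Whether the low readings came from a poor match of the human probes or from scarce transcripts was not tested. ACAT1 here is the mitochondrial thiolase, not the enzyme that esterifies cholesterol, which is SOAT1.

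Over the 21 tested members, none passed limma's adjusted p of 0.05, and the adjusted p was 0.999 for each. Over all 24590 probes tested, 0.00407% passed. At an unadjusted p under 0.05 there were 3 members, MVK and SQLE at lower and DHCR7 at higher intensity in the treated stallions, against 3.29% of all probes. The 2 groups of stallions did not overlap in 5 members, which were SQLE, MVK and PMVK with all treated stallions below all controls, and DHCR7 and OSBP with all above. That is 23.8% of the tested members, where 9.27% of all probes had groups that did not overlap. A negative difference was found in 16 of the 21 tested members, or 76.2%, against 52.5% of all probes. The share of all probes that lay lower was 77.2% under median scaling and 66.3% with the authors' own scaled values, with 76.2% of the tested members lower in both. With cyclic loess 66.7% of the members and 49.4% of all probes were lower. The median difference of the 21 was -0.06 and that of all probes -0.01. The members' median lay below that of all probes by a difference of -0.05 as reported, -0.08 with median scaling, -0.08 with the authors' values and -0.06 with cyclic loess. Over all the alternatives this difference ranged from -0.10, without control stallion 3, to -0.04, without control stallion 1. The part of the scaling in it was not tested.

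**Figure D2:**
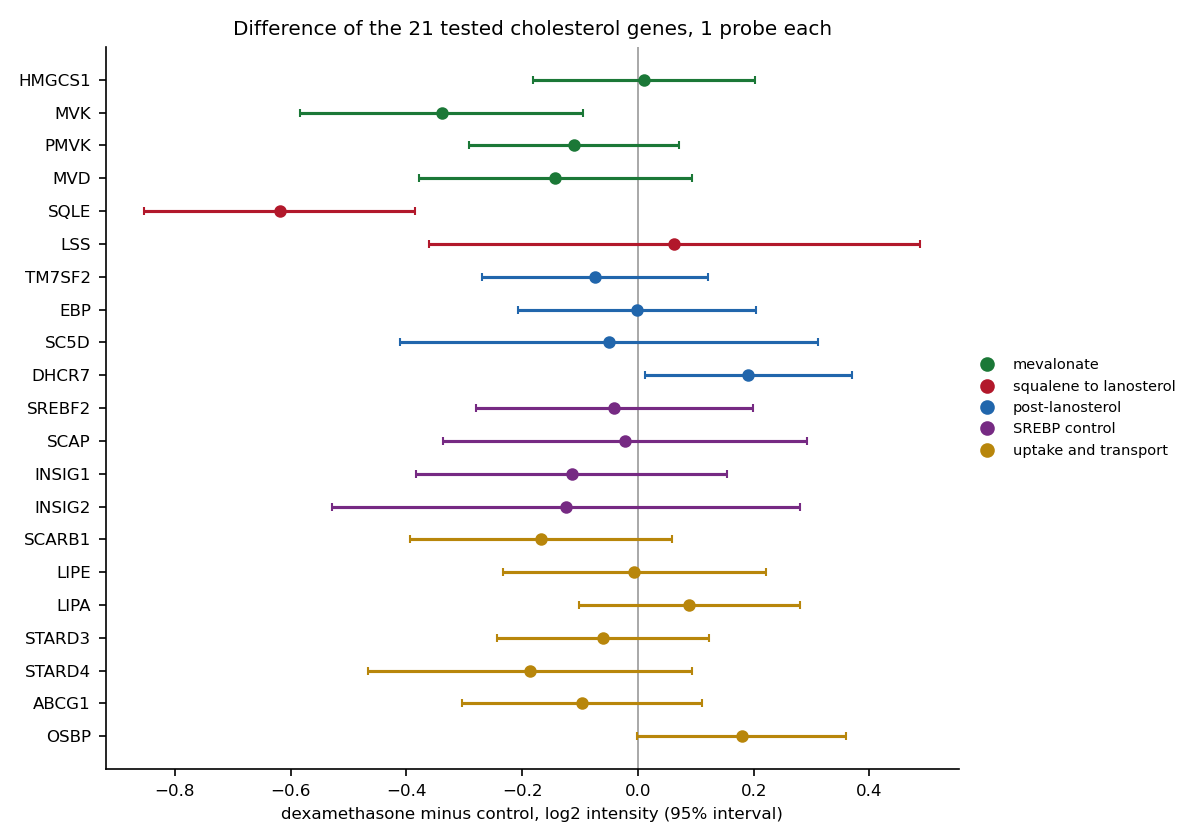
The difference in log2 intensity, dexamethasone minus control (horizontal axis), is plotted for the 21 tested members (vertical axis), 1 probe each, coloured by pathway step; bars are limma's 95% intervals from 3 stallions against 3. The intervals of SQLE and MVK lie wholly below 0, that of DHCR7 wholly above it, and the other 18 include 0.

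In the squalene step the difference was carried by SQLE, squalene epoxidase, which puts the oxygen on squalene and is one of the rate-controlling enzymes of the pathway. Its probe, GE57294, read 9.31, 9.51 and 9.32 in the treated stallions 1, 2 and 3, and 10.01 and 9.98 in control stallions 2 and 3. The spot of control stallion 1 carried a quality flag and was treated as missing, so the control mean rests on 2 animals. All 3 treated stallions lay below both controls, at 9.38 ± 0.11 (SD, n = 3) against 9.99 ± 0.03 (n = 2). The difference was -0.62 ± 0.10 (SE), with a 95% interval from -0.85 to -0.38, or 0.651-fold of the control level. On the scale deposited by the authors, where 1 unit is close to the median spot of an array, the same spots read 20.0, 24.6 and 23.1 in treated stallions and 37.2 and 37.6 in controls, a ratio of 0.603.

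The flagged SQLE spot of control stallion 1 read 9.63 when it was kept, between the treated stallions and the other controls. The groups still did not overlap, since the highest treated value was 9.51. With it the controls averaged 9.87 ± 0.21 (SD, n = 3) and the difference was -0.50 ± 0.12 (SE), with an interval from -0.76 to -0.23. Slide numbers on the files fall into 2 runs, of 4 arrays and of 2, each holding both groups. SQLE differed by -0.61 within the first run (with 1 usable control) and by -0.66 within the second (1 stallion against 1). Limma's adjusted p over all probes was 0.999 with and without the flagged spot, and the smallest under any alternative was 0.375, with median scaling. SQLE was read by a single probe, so no second reading of the gene was at hand.

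LSS, lanosterol synthase, which folds the epoxide into the sterol ring system, follows SQLE in the pathway. Its tested probe was dim, above background in 2 treated stallions and 1 control. It read 6.09, 6.70 and 6.59 in treated stallions 1 to 3 and 6.58 and 6.21 in control stallions 2 and 3, so that the groups overlapped widely. The difference was 0.06 ± 0.19 (SE), and with the flagged spot of control stallion 1 kept, which read 7.02, it was -0.14. This probe thus gave no settled direction, and the other 2 LSS probes were above background on 0 arrays.

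In the mevalonate step 4 members were tested, HMGCS1, MVK, PMVK and MVD, with a median of -0.13. Means were lower in the treated stallions for 3 of them, where 52.5% of all probes lay lower. MVK, mevalonate kinase, adds the first phosphate to mevalonate. It read 8.87, 8.73 and 8.51 in the treated stallions and 9.17, 8.98 and 8.98 in the controls. Every treated stallion was below every control, and treated stallion 1 came closest to them. The difference was -0.34 ± 0.11 (SE; 95% interval from -0.58 to -0.09), at 8.70 ± 0.18 against 9.04 ± 0.11 (SD, n = 3 each), and it was -0.27 and -0.47 within the 2 runs of slides. In the authors' units MVK read 14.3, 13.3 and 12.4 in treated stallions and 20.4, 17.1 and 17.7 in controls, a ratio of 0.723. Leaving out each stallion in turn gave -0.42 to -0.24, the smallest without treated stallion 3.

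PMVK, phosphomevalonate kinase, adds the second phosphate. It read 7.02, 7.12 and 7.03 in the treated stallions and 7.16, 7.22 and 7.12 in the controls, so that the groups lay apart by only a small margin between treated stallion 2 and control stallion 3. Its difference of -0.11 ± 0.08 (SE) had an interval from -0.29 to 0.07. MVD, the decarboxylase that forms the isoprenoid unit, read 7.49, 7.80 and 7.83 in treated stallions and 7.91, 7.79 and 7.85 in controls. Only treated stallion 1 lay clearly below the controls. The difference was -0.14 ± 0.11 (SE), or -0.04 without that stallion, and a second, dimmer MVD probe gave -0.04 ± 0.10. HMGCS1, the synthase that makes HMG-CoA ahead of these kinases, differed by 0.01 ± 0.09 (SE) with values from 6.32 to 6.51 in all 6 stallions. These values were close to background, where the constant added in background correction compresses differences. Background subtraction, without that constant, gave 0.02 ± 0.15 (SE) for HMGCS1.

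After lanosterol, 4 members were tested and their median difference was -0.03. DHCR7, which reduces 7-dehydrocholesterol to cholesterol in the last step, went the other way from SQLE and MVK. It read 6.72, 6.79 and 6.76 in the treated stallions and 6.60, 6.59 and 6.50 in the controls, with all treated stallions above all controls. The difference was 0.19 ± 0.08 (SE; 95% interval from 0.01 to 0.37), at 6.75 ± 0.03 against 6.56 ± 0.05 (SD, n = 3 each), and 0.16 and 0.26 within the runs of slides. In the authors' units it read 1.97, 2.08 and 2.10 in treated stallions and 1.65, 1.61 and 1.43 in controls, a ratio of 1.31. Background subtraction in place of the compressing correction gave 0.41 on the log2 scale. The unadjusted p of DHCR7 passed 0.05 no longer when any 1 of the 6 stallions was left out, where the difference was 0.16 to 0.21, nor with median scaling.

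The other late enzymes showed no separation of the groups. TM7SF2, the sterol C14 reductase, read 7.19, 7.24 and 7.06 in treated stallions and 7.30, 7.25 and 7.17 in controls, a difference of -0.07 ± 0.09 (SE). EBP, the sterol isomerase that also binds emopamil, read 6.85, 6.92 and 6.66 against 6.77, 6.83 and 6.84, a difference of -0.00 ± 0.09 with an interval from -0.21 to 0.20. SC5D, the desaturase that supplies the substrate of DHCR7, was read by 2 dim probes. They differed by -0.05 ± 0.16 and -0.14 ± 0.12 (SE) and were above background on 3 and 4 arrays.

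**Figure D3:**
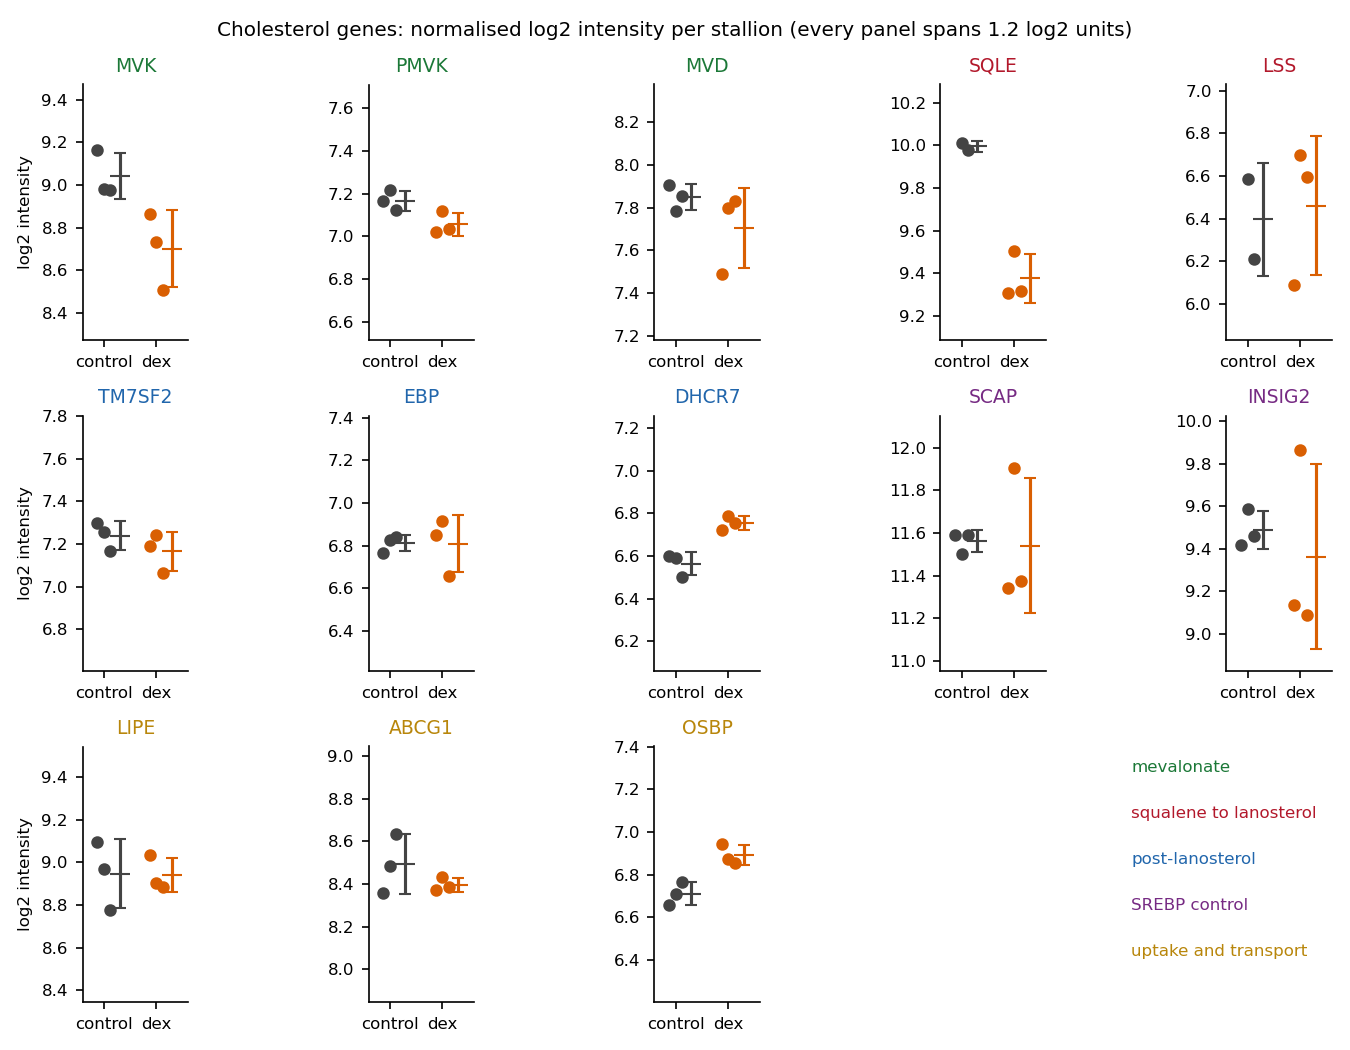
Normalised log2 intensity (vertical axis, 1.2 log2 units in every panel) is plotted for 13 members in control stallions (grey) and dexamethasone stallions (orange); points are stallions 1 to 3 from left to right (flagged spots of control stallion 1 in SQLE and LSS are not drawn), the dash is the group mean and bars are the SD. In SQLE, MVK, PMVK, DHCR7 and OSBP the groups do not overlap, and in SCAP and INSIG2 treated stallion 2 lies above all others while treated stallions 1 and 3 lie below all controls.

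Of the sterol sensors, SCAP, INSIG1, INSIG2 and SREBF2 were tested. All 4 had means slightly lower in the treated stallions, where 52.5% of all probes lay lower. Differences were from -0.12 to -0.02 on the brightest probe of each gene, and the intervals of these 4 probes all included 0. The sign turned in 3 of the 16 alternatives for SCAP, in 2 for SREBF2 and in 1 for INSIG2. SCAP, the escort of the SREBPs, read 11.34, 11.90 and 11.37 in the treated stallions and 11.59, 11.50 and 11.59 in the controls. INSIG2, which retains SCAP in the endoplasmic reticulum, read 9.13, 9.86 and 9.09 in the treated stallions and 9.42, 9.59 and 9.46 in the controls. In both genes treated stallion 2 was the highest of the 6, and the other 2 treated stallions were the lowest. Means therefore differed little, by -0.02 ± 0.14 for SCAP and -0.12 ± 0.18 for INSIG2 (SE), while the SD within treated stallions was 0.32 and 0.43 against 0.05 and 0.09 within controls. Without treated stallion 2 the differences were -0.20 and -0.38, and both genes then passed an unadjusted p of 0.05, while limma's adjusted p over all probes was 0.998 for each. A second INSIG2 probe, too dim to be tested, was above background in treated stallion 2 alone. It read 6.54 there and 5.75 to 6.06 in the other stallions. The array of treated stallion 2 had the lowest share of probes above background (42.5%) and the most spots with the quality flags C, I or P (1189, against 320 to 807 on the other arrays), and the part of array quality in these 2 genes was not tested.

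INSIG1, the relative of INSIG2, read 7.37, 7.38 and 7.68 in the treated stallions and 7.46, 7.79 and 7.53 in the controls, and its difference was -0.11 ± 0.12 (SE). SREBF2 encodes the SREBP that mainly drives cholesterol synthesis. Its brightest probe read 9.42, 9.13 and 9.30 in treated stallions and 9.36, 9.45 and 9.17 in controls, with overlapping groups. That probe differed by -0.04 ± 0.11 (SE). A second SREBF2 probe, described after its values were seen, read 6.87, 6.63 and 6.62 in treated stallions and 6.95, 6.90 and 6.95 in controls, all treated below all controls, and differed by -0.23 ± 0.09 (SE). Its interval, from -0.44 to -0.02, excluded 0, so that this probe passed an unadjusted p of 0.05, while limma's adjusted p was 0.999. The third probe, with 5 values, differed by -0.01 ± 0.09, or 0.08 with its flagged spot kept. The 3 readings of the gene did not settle on 1 size of difference.

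Among the genes of uptake, storage and transport 7 were tested. Their median difference of -0.06 was made of 5 negative and 2 positive values, where 52.5% of all probes were negative. SCARB1, the receptor that takes cholesteryl esters from high-density lipoprotein, read 6.44, 6.24 and 6.56 in treated stallions and 6.65, 6.60 and 6.49 in controls. The groups overlapped through control stallion 3 and treated stallion 3. The difference was -0.17 ± 0.10 (SE; 95% interval from -0.39 to 0.06) on this dim probe, and -0.43 ± 0.23 (SE) with background subtraction. LIPE, the hormone-sensitive lipase that frees stored cholesterol, read 9.03, 8.90 and 8.89 against 9.10, 8.97 and 8.77, a difference of -0.01 ± 0.10 (SE). LIPA, which does the same in lysosomes, differed by 0.09 ± 0.09 (SE), with treated stallion 3 the highest at 7.02.

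The carriers showed differences of both signs. OSBP, which exchanges cholesterol for a phosphoinositide between the endoplasmic reticulum and the Golgi, read 6.94, 6.88 and 6.85 in treated stallions and 6.66, 6.71 and 6.77 in controls. All treated stallions lay above all controls, and the difference of 0.18 ± 0.08 (SE) had an interval from -0.00 to 0.36. In the authors' units it read 2.60, 2.34 and 2.41 in treated stallions and 1.81, 1.91 and 2.17 in controls, a ratio of 1.25. OSBP passed an unadjusted p of 0.05 in 7 of the 16 alternative settings, background subtraction and cyclic loess among them, and not as reported. STARD4, a soluble sterol carrier, read 8.26, 8.19 and 8.08 against 8.38, 8.10 and 8.60 in controls. Its difference of -0.19 ± 0.13 (SE) rested on control stallion 3, and without that stallion it was -0.06. STARD3, a late endosomal sterol carrier related to STAR, differed by -0.06 ± 0.08 (SE), with an interval from -0.24 to 0.12.

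ABCG1, which exports cholesterol to high-density lipoprotein, had 4 tested probes, and they did not share a sign. The brightest read 8.37, 8.43 and 8.38 in treated stallions and 8.36, 8.49 and 8.64 in controls, a difference of -0.10 ± 0.09 (SE). The other 3 differed by 0.15 ± 0.10, 0.14 ± 0.09 and 0.05 ± 0.09. No interval of the 4 excluded 0. In the probe at 0.14 the groups did not overlap.

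**Figure D4:**
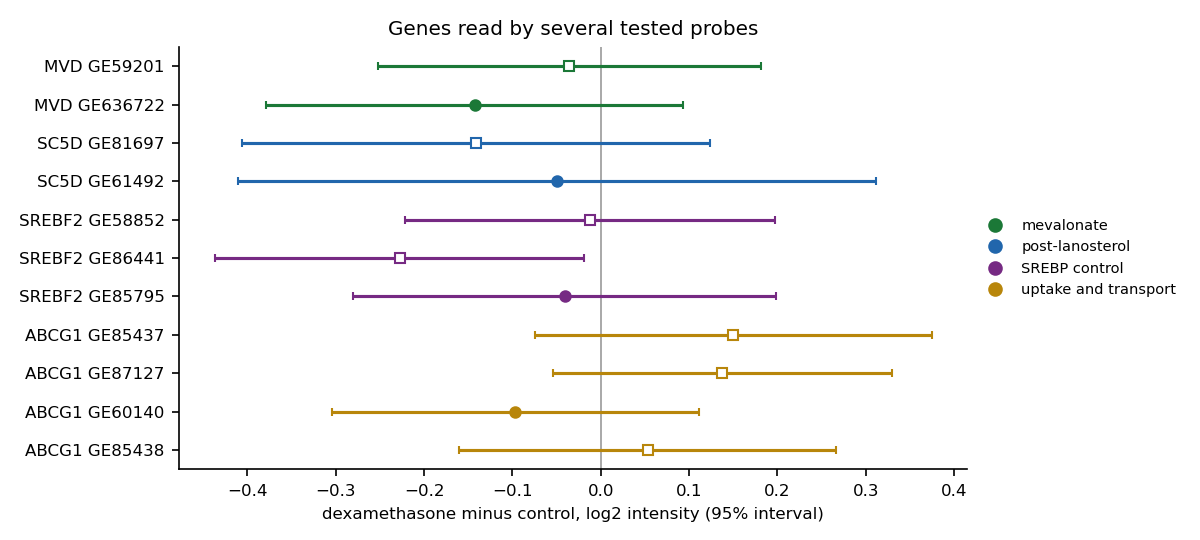
Differences in log2 intensity, dexamethasone minus control (horizontal axis), with limma's 95% intervals, are plotted for the 11 tested probes of the 4 members with more than 1 tested probe; filled circles are the brightest probe of a gene and open squares its other probes. The probes of MVD, SC5D and SREBF2 all lie below 0, at different sizes, and the 4 ABCG1 probes lie on both sides of 0.

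Between members the stallions differed by small amounts. The SD within groups had a median of 0.13 over the 21 tested members, from 0.04 to 0.31, against 0.12 over all tested probes. Treated stallions 1, 2 and 3 held the lowest value in 7, 3 and 6 of the 21 members and the highest in 2, 5 and 1. Control stallions 1, 2 and 3 held the lowest in 2, 0 and 3 and the highest in 6, 5 and 2. The same counts over all probes were not made, so these have no background to be read against. The members' median deviation from the midpoint of the group means was -0.04, 0.01 and -0.06 in treated stallions 1, 2 and 3 and 0.04, 0.04 and -0.01 in controls 1, 2 and 3, so the groups overlapped. Without control stallion 3, which moved it most of the 6, the median difference of the 21 members was -0.11. Intervals of single members reached from 0.18 to 0.42 on either side, and for 18 of the 21 members they lay within 0.5 of 0 on the log2 scale.

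Markers of cell types were read beside these results. Over all probes 52.5% lay lower in the treated stallions. Of 6 Leydig cell markers all were tested, with a median difference of -0.04 and 3 of them lower. INSL3, the relaxin-family hormone that Leydig cells secrete, differed by -1.21 ± 0.23 (SE) on its brighter probe and by -0.52 ± 0.22 on the other. The other 5 markers differed by -0.17 to 0.08 on the brightest probe of each. For STAR that probe differed by 0.01 ± 0.11 (SE), and its 2 dimmer tested probes by -0.12 ± 0.09 and 0.19 ± 0.10. The summed intensity of INSL3, STAR and LHCGR in the authors' units, for which all 6 stallions had values, was 174 to 222 in treated stallions and 229 to 263 in controls, so the groups did not overlap. Without INSL3 the sum, computed after these values were seen, was 161, 183 and 192 in treated stallions 1 to 3 and 200, 182 and 202 in controls 1 to 3, and the groups overlapped. The 2 tested myoid cell markers, MYLK and ACTA2, were both lower, by -0.22 and -0.02. Their sums were 11.1 to 12.3 in treated stallions and 14.1 to 14.6 in controls. MYLK made up most of this, at 9.3 to 11.3 against 12.5 to 13.0. A second, dimmer MYLK probe differed by -0.21 ± 0.16 (SE), with overlapping groups. The other ACTA2 probes were above background on 0 arrays. The sums of the Sertoli, germ cell, macrophage and red cell markers overlapped between the groups. CLDN11, a tight junction gene of Sertoli cells, was not in the Sertoli sum because the spot of control stallion 2 was flagged. Its brighter probe read 7.92, 8.26 and 8.10 in treated stallions and 7.50 and 7.72 in control stallions 1 and 3, all treated above both controls, a difference of 0.48 ± 0.13 (SE) with an interval from 0.20 to 0.77. The dimmer CLDN11 probe, with 2 values a group, differed by 0.04 ± 0.12 (SE). CLDN11 was singled out after its values were seen. No tested marker passed limma's adjusted p of 0.05, which was 0.999 for both probes of INSL3 and of CLDN11. The part of Leydig, Sertoli and myoid cell content in the differences of SQLE and MVK was not tested.

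Of 28 further genes of the pathway listed beside the members, 23 had a probe of their own and 11 were tested. None passed limma's adjusted p and none had an unadjusted p under 0.05. Here 7 of the 11 lay higher in the treated stallions, with a median of 0.02 and a range from -0.13 to 0.15. The other 4, or 36.4%, lay lower, against 52.5% of all probes. By plan these genes were to be named only at an unadjusted p under 0.05, so those named here fall outside it. ACSS2, which makes acetyl-CoA from acetate, differed by 0.02 ± 0.12 (SE), and SOAT2, which forms cholesteryl esters inside cells, by 0.05 ± 0.10. LCAT, which esterifies cholesterol in lipoproteins, differed by -0.13 ± 0.10, the lowest of the 11. In 2 of the 11, named after their values were seen, the groups did not overlap, which is 18.2%, against 9.27% of all probes. These were ABCG5, a sterol exporter, at 0.15 ± 0.09 (SE), and CYP7B1, an oxysterol hydroxylase, at 0.12 ± 0.08 (SE). A further probe of CYP7B1 and a further probe of ACSS2 were above background on 0 arrays.

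**Figure D5:**
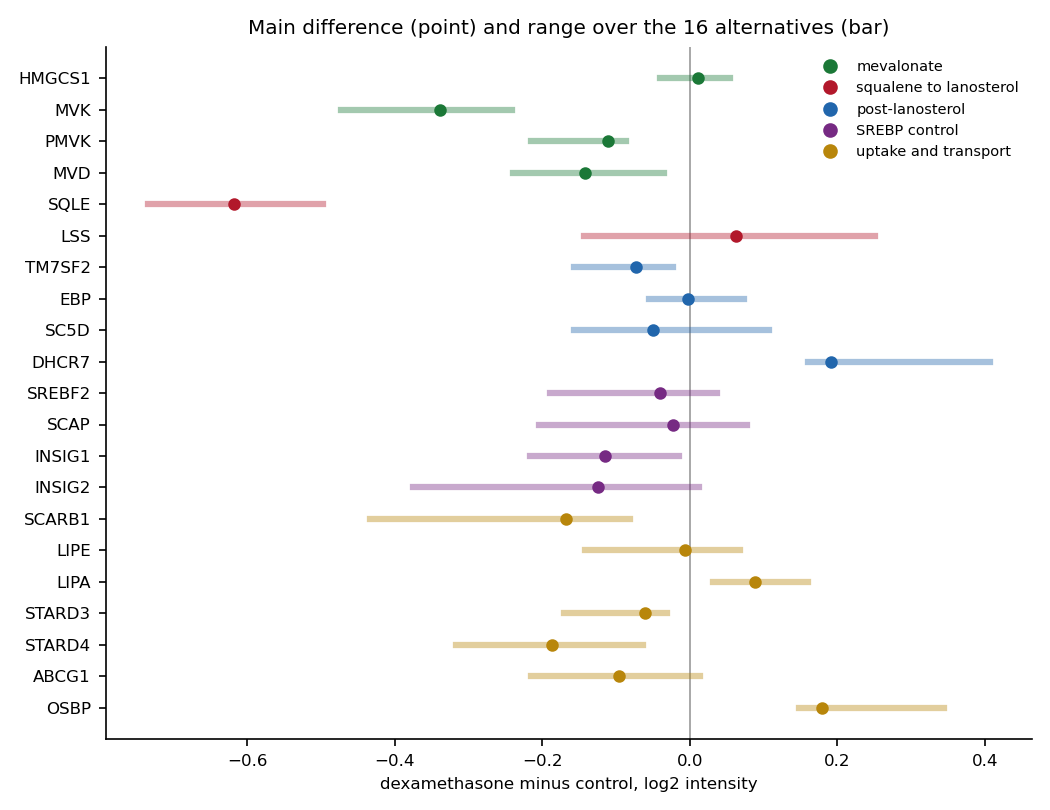
The difference in log2 intensity, dexamethasone minus control (horizontal axis), of each of the 21 tested members is plotted as reported (point) with the lowest to highest value over the 16 alternative settings (bar), coloured by pathway step. SQLE stays between -0.74 and -0.50 and MVK between -0.47 and -0.24, DHCR7 between 0.16 and 0.41 and OSBP between 0.15 and 0.35, and the bars of 9 members cross 0.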

How the data were processed

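Per the labels, RNA was labelled by the CodeLink manual protocol and read as Alexa-647. No source used here names the scanner software. The deposited files hold spot mean and background intensity, a scaled intensity (from the values, the background-subtracted intensity over 1 constant per array) and a signal strength score deposited by the authors (spot mean over noise level, not used in the tests). Above background means no flag L. Flag M spots carry no reading, and those with C, I or P, letters the files do not explain, were set to missing. With limma 3.58.1 in R 4.3.3, spot intensity was corrected with normexp (offset 50) and quantile normalised. Figures used matplotlib 3.10.9. The test was lmFit and eBayes on the 2 groups alone, with two-sided p-values adjusted by Benjamini-Hochberg across 24590 probes; the code was tested on simulated data. A member was represented by its brightest tested probe. Values per stallion are given for members with an unadjusted p under 0.05, groups that do not overlap, or the 2 brightest probes of a step; INSIG1, SREBF2, SCARB1 and STARD4 were added after their values were seen. Members and lists were chosen with earlier results of these data known. Replicate numbers follow the order of samples and pair no stallions.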

Additional observations from a re-analysis of the deposited data

How the results depend on the processing

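All 16 alternatives were planned, and no member passed limma's adjusted p in any of them. Members past an unadjusted p of 0.05 numbered 2 to 4, always with MVK, and with SQLE wherever it was tested. DHCR7 was among them in 9 of the 16 and OSBP, which was not as reported, in 7. Requiring signal above background in all 6 stallions left out SQLE, HMGCS1, LSS, SC5D and SCARB1. The median difference of the tested members, -0.06, was -0.11 with background subtraction, -0.17 with median scaling (where the median of all probes was -0.08) and -0.14 with the authors' scaled intensity (-0.07 for all probes), and -0.110 to -0.0446 without each array in turn. The sign turned in 24 of 331 values of single members, none of them called, and never in 12 of the 21 members. EBP was 0.0031 and SCAP 0.014 with cyclic loess, LSS was -0.14 with flagged spots kept, and ABCG1 was 0.014 with the mean of its probes. Without each array in turn the ranges that crossed 0 were -0.0557 to 0.0729 for EBP, -0.0407 to 0.0549 for HMGCS1, -0.38 to 0.012 for INSIG2, -0.0924 to 0.0680 for LIPE, -0.12 to 0.25 for LSS, -0.16 to 0.11 for SC5D, -0.20 to 0.0769 for SCAP and -0.12 to 0.0364 for SREBF2. The causes of these moves and turns were not tested. The offset compresses differences of dim probes, and the sign turned in no member with the smaller offset or with background subtraction. The number of arrays and, for dim probes, the signal over background limit the precision.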
